A study of Mus musculus with 12 samples.

Results

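Lrp2, Gatm, Miox and Slc22a7 are marker genes of the proximal tubule, the nephron segment that reclaims most of the filtered fluid, protein and solutes. They were taken by gene symbol from a spotted array of 15600 cDNA clones. The 4 genes were represented by 5 clones in 10 spots, among 9955 genes and unnamed clones tested. Kidney cortex RNA came from 6 mice. The 3 menopausal/diabetic mice had received VCD and STZ, and the 3 diabetic mice STZ alone, so every animal was diabetic and no untreated mouse entered the comparison. STZ, streptozotocin, kills the insulin-making beta cells, and VCD, vinylcyclohexene diepoxide, destroys small ovarian follicles and so models a gradual menopause in animals that keep their ovaries. Cortex was sampled 6 weeks after STZ, and the labels name no strain, age or dose. Material made from amplified RNA of 2 animals at a time, labelled with Alexa Fluor 546 or Alexa Fluor 647, was put on each of 12 arrays. An animal thus had 4 arrays, 2 with each dye, and 6 arrays set the groups against each other.

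Cells of the proximal tubule carry a dense brush border on which large receptors bind filtered proteins and take them up by clathrin-dependent endocytosis. The same cells hold enzymes that make guanidinoacetate and break down inositol, and carry transporters that move organic anions across their membranes. Transcripts of such genes are abundant in cortex because proximal tubules make up most of its mass. In whole cortex, fewer proximal tubule cells and less RNA per cell cannot be told apart.

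Lrp2 encodes megalin, the endocytic receptor for albumin, vitamin carriers and many filtered ligands. The gene lies on chromosome 2 (GRCm38.p6, chr2:69424335-69586029). Gatm encodes glycine amidinotransferase, the mitochondrial enzyme that makes guanidinoacetate, the precursor of creatine, from arginine and glycine, and lies on the same chromosome (chr2:122594473-122611277). Miox encodes myo-inositol oxygenase, which opens the inositol ring to give glucuronate and is the first step of inositol breakdown in kidney (chr15:89334473-89337007). Slc22a7 encodes the organic anion transporter OAT2 (chr17:46432185-46438477). Where each clone lies within its gene is not stated in the files.

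The start regions of these genes are shown because the 4 transcripts were low together in 1 animal, as described further on. RefSeq promoters of build GRCm38.p6, running from 250 bases before to 50 after the start, were matched for 3 of the 4 genes, all but Slc22a7. Capitals mark matches on either strand. For the box named TATA the letters searched were TATAAA, and for the GC box they were GGGCGG. The box named CCAAT was searched by those letters. For the hepatocyte nuclear factors HNF1 and HNF4, regulators of proximal tubule genes, the cores searched were GTTAAT and, for HNF4, CAAAGTCC. None of the matches overlaps another.
Lrp2, chr2:69585980-69586279, minus strand: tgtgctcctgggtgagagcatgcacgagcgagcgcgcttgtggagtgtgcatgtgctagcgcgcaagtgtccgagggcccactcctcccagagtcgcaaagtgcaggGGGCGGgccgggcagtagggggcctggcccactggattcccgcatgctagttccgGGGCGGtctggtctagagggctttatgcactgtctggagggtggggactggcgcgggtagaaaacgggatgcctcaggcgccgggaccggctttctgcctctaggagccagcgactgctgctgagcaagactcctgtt
Gatm, chr2:122611228-122611527, minus strand: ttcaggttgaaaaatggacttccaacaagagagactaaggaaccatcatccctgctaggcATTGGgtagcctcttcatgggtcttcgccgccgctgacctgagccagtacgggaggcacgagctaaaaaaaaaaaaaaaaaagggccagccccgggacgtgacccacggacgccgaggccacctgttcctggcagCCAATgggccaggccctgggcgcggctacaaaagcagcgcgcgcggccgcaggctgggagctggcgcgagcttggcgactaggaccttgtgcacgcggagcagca
Miox, chr15:89334223-89334522, plus strand: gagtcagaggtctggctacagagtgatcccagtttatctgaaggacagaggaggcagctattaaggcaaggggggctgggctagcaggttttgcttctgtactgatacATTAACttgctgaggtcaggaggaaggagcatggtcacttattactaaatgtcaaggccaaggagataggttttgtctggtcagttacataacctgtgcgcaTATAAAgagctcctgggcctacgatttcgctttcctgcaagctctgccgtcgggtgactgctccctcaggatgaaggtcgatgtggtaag

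The 3 windows differed in composition and shared none of the 5 motifs. The Lrp2 window was 65% G and C with 20 CpG dinucleotides, and it held 2 GC boxes. The Gatm window was 60.7% G and C with 22 CpG dinucleotides and held 2 CCAAT boxes, 1 on each strand. The Miox window was 50% G and C with 6 CpG dinucleotides, and it held a TATA box that began 40 bases before the start and 1 GTTAAT match on the opposite strand. Over all 32851 mouse promoters in the table the medians were 52.7% G and C and 7 CpG dinucleotides. There GGGCGG was present in 35.7%, CCAAT in 37.4%, TATAAA in 13.6%, GTTAAT in 7.1% and CAAAGTCC in 1.42% of windows. These matches describe the letters only, and no binding was measured.

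All 5 clones gave signal in most hybridisations. Detection was called in the Alexa Fluor 546 channel on 12 arrays for Lrp2 and for Miox, 11 for Slc22a7 and 10 for Gatm. Signal over local background in that channel ran from 3106 to 20273 intensity units for Lrp2 and from 1280 to 11843 for Miox. For Slc22a7 it ran from 144 to 1324 units, and for Gatm it ran from below background to 4013 units. The Gatm spots lay below background in both channels on the array of diabetic animals 3 and 1, so that ratio holds no measured Gatm signal. None of the 10 spots was marked abnormal or saturated on any array. The largest gap between the 2 spots of a clone was 0.18 on the log2 scale for the brighter Lrp2 clone, 0.11 for Miox, 0.40 for Slc22a7 and 0.87 for Gatm. The brighter Lrp2 clone stands for the gene below.

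The arrays had limits that bear on every value given here. Median signal over background ran from 14.6 to 209 units per channel and array, and 30.5% to 57.4% of spots were detected. The array of diabetic animals 2 and 3 carries other animal identifiers inside its file than its title gives. The arrays of menopausal/diabetic animal 1 with diabetic animal 2 and with menopausal/diabetic animal 2 have slide numbers apart from the other 10. The channels of diabetic animal 3 had median signals of 44.9 to 83.2 units, inside the range of the other 5 animals. Of the authors' deposited log2 ratio columns, 0 of 12 were best matched by the scanner file of the same array. Each column instead matched a different array best, with the sign turned round (r of -0.948 to -0.586). The columns and the scanner files thus disagree on sample names. Inside the scanner files an animal had the same identifier on all its arrays, but for the array of diabetic animals 2 and 3. The scanner files were therefore used, and each animal's level rests on the array titles.

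Least-squares levels were computed for each animal from its 4 arrays, on the log2 scale and relative to the mean of the 6 animals. Lrp2 stood at 0.13, 0.25 and 0.33 in menopausal/diabetic animals 1, 2 and 3, against 0.18, 0.24 and -1.15 in diabetic animals 1, 2 and 3, with a standard error between arrays of 0.11. Megalin transcript thus lay between 0.13 and 0.33 in 5 animals and far below them in diabetic animal 3. Gatm stood at 0.54, -0.05 and 0.54 in menopausal/diabetic animals, against 0.11, 0.53 and -1.66 in diabetic animals (standard error 0.18). Miox stood at 0.14, 0.03 and 0.27 in menopausal/diabetic animals, against 0.13, 0.31 and -0.89 in diabetic animals (standard error 0.077). For each of these enzymes diabetic animals 1 and 2 lay within or just above the range of the menopausal/diabetic animals, and diabetic animal 3 lay below all others. Slc22a7 stood at 0.06, -0.25 and 0.28 in menopausal/diabetic animals, against 0.32, 0.69 and -1.10 in diabetic animals (standard error 0.12). The anion transporter was highest in diabetic animal 2 and lowest in diabetic animal 3, so the diabetic animals held both ends of its range. Its spots were not called detected on the array of menopausal/diabetic animal 1 with diabetic animal 2. That array enters the levels of both animals.

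**Figure D1:**
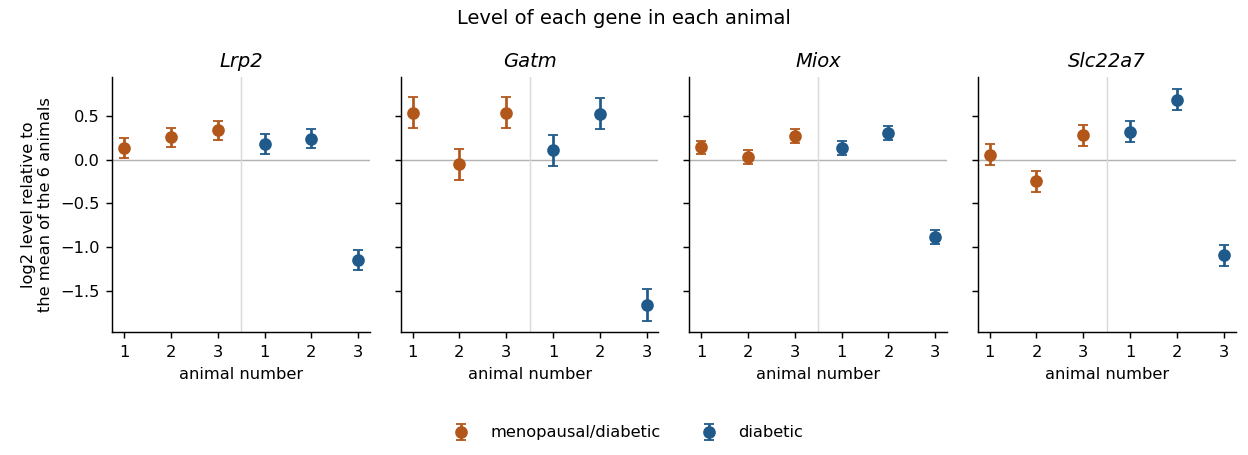
Level of each gene in each animal, in log2 relative to the mean of the 6 animals, with the standard error between arrays as bars; menopausal/diabetic animals 1 to 3 stand left of diabetic animals 1 to 3 in each panel. Diabetic animal 3 lies lowest for every gene, at -1.15 for Lrp2, -1.66 for Gatm, -0.89 for Miox and -1.10 for Slc22a7.

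The first comparison asks whether VCD on top of STZ was accompanied by a different level of these transcripts. No difference was detected between the groups for any of the 4 genes, and the animals of the groups overlapped for each. Lrp2 averaged 0.24 ± 0.10 in menopausal/diabetic and -0.24 ± 0.78 in diabetic animals (SD, n = 3 each), a difference of 0.48 ± 0.36 (SE, adjusted p = 0.753, limma). Gatm averaged 0.34 ± 0.34 in menopausal/diabetic and -0.34 ± 1.16 in diabetic animals, a difference of 0.69 ± 0.54 (adjusted p = 0.775, limma). Both lay higher in the menopausal/diabetic mean, by less than the spread among diabetic animals. Miox averaged 0.15 ± 0.12 in menopausal/diabetic and -0.15 ± 0.64 in diabetic animals, a difference of 0.30 ± 0.30 (adjusted p = 0.842, limma). Slc22a7 averaged 0.03 ± 0.26 in menopausal/diabetic and -0.03 ± 0.94 in diabetic animals, a difference of 0.06 ± 0.44 (adjusted p = 0.997, limma).

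The group test called 0 of 4 members and 0 of all 9955 genes and clones, which is 0% of those tested. At an unadjusted p under 0.05 the members again numbered 0, against 834 or 8.38% of all genes and clones. The 95% intervals of the difference were wide, from -0.37 to 1.33 for Lrp2, from -0.61 to 1.98 for Gatm, from -0.41 to 1.00 for Miox and from -0.99 to 1.11 for Slc22a7. An increase of 1 log2 unit in menopausal/diabetic animals lay inside all 4 intervals, so these data do not exclude it. With 3 animals against 3 an exact permutation test could not pass the threshold, so none was used.

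Diabetic animal 3 decided the group means. Without it the difference was 0.02 ± 0.10 for Lrp2, -0.14 ± 0.18 for Gatm, -0.09 ± 0.12 for Miox and -0.38 ± 0.16 for Slc22a7, and each had an adjusted p of 1.00 by limma. Gatm, Miox and Slc22a7 thus lay lower, not higher, in the menopausal/diabetic mean once that animal was left out. Slc22a7 also changed sign without menopausal/diabetic animal 1, at -0.04, and without menopausal/diabetic animal 3, at -0.11. Without diabetic animal 2 the differences were the most positive, at 0.79 for Lrp2, 1.16 for Gatm, 0.58 for Miox and 0.34 for Slc22a7, with adjusted p from 0.368 to 0.78. That setting called 44 of all genes and clones, and the members were not among them.

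**Figure D2:**
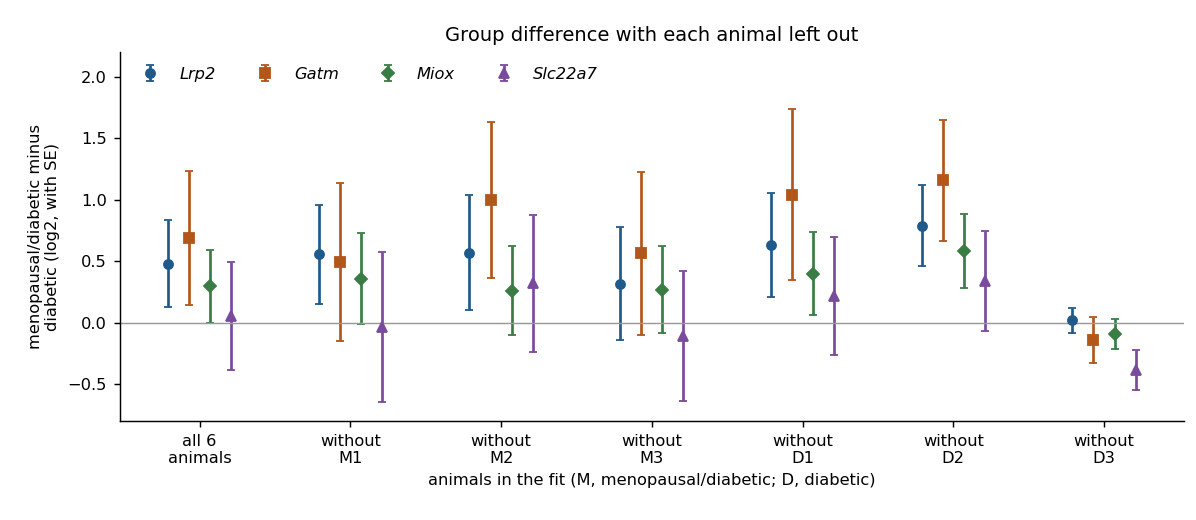
Group difference of each gene, menopausal/diabetic minus diabetic, in log2 with its standard error, from all 6 animals and with each animal left out. Without diabetic animal 3 (far right) the values run from -0.38 to 0.02 and the standard errors are narrower, from 0.10 to 0.18, since the remaining animals lie closer together.

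The second comparison asks whether animals of 1 group differed beyond the error between arrays. Among the 3 menopausal/diabetic animals no difference was detected, with adjusted p of 0.981 for Lrp2, 0.945 for Gatm, 0.95 for Miox and 0.945 for Slc22a7 by limma's moderated F test. That test called 0 of all 9955 genes and clones in the menopausal/diabetic group. Among the 3 diabetic animals it called 4 of 4 members, against 146 or 1.47% of all genes and clones. The members were picked with such results known, so these calls are a description. The adjusted p was 0.00637 for Lrp2, 0.009 for Gatm, 0.0029 for Miox and 0.00378 for Slc22a7. Animal 3 was the lowest diabetic animal for all 4, a pattern that 0.492% of all genes and clones showed with a call. Calls with animal 3 highest made up 0.924%. Whether the spread itself differed between the groups was not tested.

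Set against the mean of diabetic animals 1 and 2, diabetic animal 3 differed by -1.36 log2 units for Lrp2, -1.98 for Gatm, -1.11 for Miox and -1.60 for Slc22a7. These are levels 2.56 times lower for Lrp2, 3.95 times for Gatm, 2.15 times for Miox and 3.03 times for Slc22a7. The size depended on the processing, for bright and for dim spots. With median centring the difference was -0.78 for Lrp2 and -0.58 for Miox, neither past the F test (adjusted p = 0.0729 and 0.0574, limma). The same setting gave -1.78 for Gatm and -1.42 for Slc22a7. Without background correction the difference was -0.55 for Slc22a7, no longer past the F test (adjusted p = 0.0734, limma), and -1.13 for Gatm, while it was -1.01 for Lrp2 and -0.73 for Miox. In its 2 arrays with Alexa Fluor 647, diabetic animal 3 had only 69.4 and 96.7 units of Slc22a7 signal over background, and the Gatm value includes the array with no measured Gatm signal. Among all 9955 genes and clones, only 13 or 0.131% lay at least 1 log2 unit lower in that animal, the 4 members among them. Ordered from the lowest difference, Gatm came at place 1, Slc22a7 at 2, Lrp2 at 4 and Miox at 11. The median over all genes and clones was 0.0048. The 4 genes were at percentiles 79.2 to 99.2 of brightness, and 5675 of the 9955 were detected on at least 6 arrays. The share among equally bright genes was not computed. Diabetic animal 3 was the lowest of the 6 animals for all 4 members, against 22.4% of all genes and clones, and these places are a description, since the genes were picked with such results known.

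**Figure D3:**
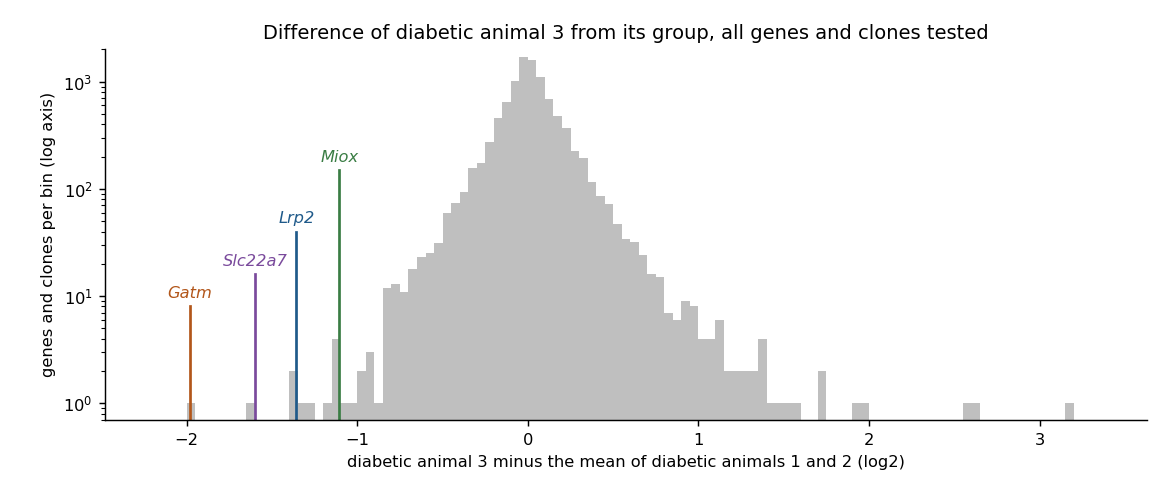
Distribution, over the 9955 genes and unnamed clones, of the log2 level of diabetic animal 3 minus the mean of diabetic animals 1 and 2; the vertical axis counts genes and clones per bin on a log scale. The lines mark Gatm at -1.98, Slc22a7 at -1.60, Lrp2 at -1.36 and Miox at -1.11, all in the sparse left tail.

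All 15 pairs of animals were then compared within the 12-array fit, a choice made after the levels were seen. Over all genes and clones, the pairs of diabetic animal 3 called 3.5% with menopausal/diabetic animal 1, 1.69% with animal 2 and 1.88% with animal 3 of that group, and 1.15% with diabetic animal 1 and 2.36% with diabetic animal 2. The other 10 pairs called 0%, but for 0.0201% between menopausal/diabetic animal 2 and diabetic animal 1. For Lrp2, Gatm and Miox each of the 5 pairs that include diabetic animal 3 passed the threshold, with adjusted p of 0.00449 to 0.00912 for Lrp2, 0.00392 to 0.0227 for Gatm and 0.00143 to 0.00797 for Miox. For Slc22a7 4 of the 5 passed, and the pair with menopausal/diabetic animal 2, the next lowest animal, did not (adjusted p = 0.0626, limma). Of the 10 pairs without diabetic animal 3, 0 passed for any of the 4 genes, and the lowest adjusted p among them was 0.497, for Slc22a7. Its levels in menopausal/diabetic animal 2 and diabetic animal 2 gave that value, a difference of -0.94 ± 0.20 (SE) that had an unadjusted p of 0.00123.

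The low level was read on each array of diabetic animal 3 and in both dyes for Lrp2, Miox and Slc22a7, and on 3 of the 4 arrays for Gatm, which had no measured signal on the array of diabetic animals 3 and 1. That animal was labelled with Alexa Fluor 647 beside menopausal/diabetic animal 2 and diabetic animal 2, and with Alexa Fluor 546 beside menopausal/diabetic animal 1 and diabetic animal 1. For Lrp2, diabetic animal 3 minus its partner, less the dye term, was -1.19 against menopausal/diabetic animal 2, -1.53 against menopausal/diabetic animal 1, -1.44 against diabetic animal 2 and -1.24 against diabetic animal 1. All 4 megalin ratios were below -1 and no partner stood apart from the others.

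The Miox ratios were the most even of the 4 genes. They were -1.08 against menopausal/diabetic animal 2, -0.93 against menopausal/diabetic animal 1, -1.01 against diabetic animal 2 and -1.13 against diabetic animal 1. For Slc22a7 the same ratios were -0.61, -1.06, -1.96 and -1.57 in that order of partners. The gaps to the diabetic partners were larger, but each partner had a single array, so no pattern by group can be read. Slc22a7 signal of diabetic animal 3 over background on these arrays was 96.7, 431, 69.4 and 144 units. For Gatm the ratios were -1.72, -2.70 and -2.27 against the first 3 of these partners. On the array with diabetic animal 1, where its spots were below background, the ratio before the dye term was taken off was -0.01, and the -1.10 left after it is nearly all dye term. Without that array the Gatm difference of diabetic animal 3 was -2.40 (adjusted p = 0.00258, limma's F test).

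On the 8 arrays without diabetic animal 3 the ratios were small. Less the dye term, the largest in either direction was 0.49 for Lrp2, 0.75 for Gatm, 0.38 for Miox and 0.77 for Slc22a7. The Gatm value came from the array of menopausal/diabetic animals 2 and 3, on which its spots were not called detected. Every Lrp2 and Miox ratio on those arrays was nearer to 0 than any on the arrays of diabetic animal 3. For Slc22a7 the ranges touched, since the ratio of -0.61 against menopausal/diabetic animal 2 was within the span of the other arrays. Gatm had the largest dye term, at -1.08, against -0.42 for Lrp2, 0.14 for Miox and -0.36 for Slc22a7.

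**Figure D4:**
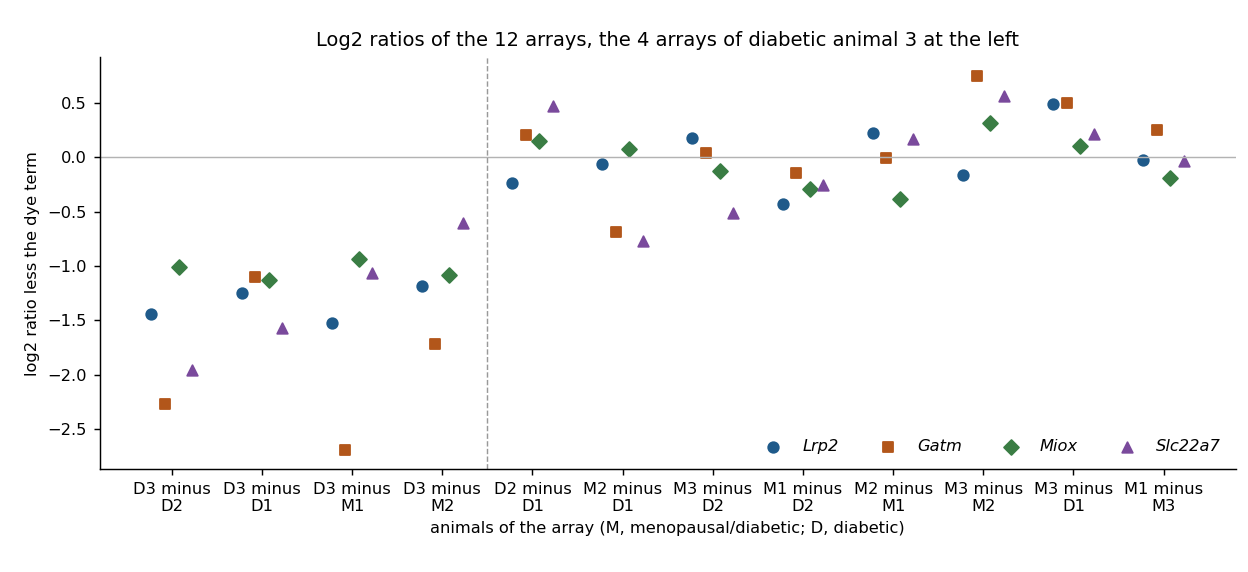
Log2 ratio of the 2 animals on each array, less the gene's dye term; left of the dashed line are the 4 arrays of diabetic animal 3 (its level minus the partner's), right of it the other 8. The 4 genes lie between -2.70 and -0.61 on the left and within 0.77 of 0 on the right; the Gatm point of -1.10 against D1 comes from spots below background.

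The array of diabetic animals 2 and 3, whose file names other animals than its title, mattered for the calls but little for the size. Without it the differences of diabetic animal 3 were -1.33 for Lrp2, -1.93 for Gatm, -1.22 for Miox and -1.49 for Slc22a7. Miox kept its call (adjusted p = 0.0222), while Lrp2 had an adjusted p of 0.0856, Gatm 0.119 and Slc22a7 0.0691 in limma's F test. That fit called 31 of all genes and clones in place of 146. Leaving out any other single array kept all 4 calls, with adjusted p of at most 0.0392. Without the 2 arrays of slide numbers apart, the 4 genes were called as well, with adjusted p of 0.0116 to 0.0201.

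The second Lrp2 clone gave a second reading of megalin from another place on the slide. Its levels were 0.04, 0.48 and 0.03 in menopausal/diabetic animals 1, 2 and 3, against 0.06, 0.08 and -0.68 in diabetic animals 1, 2 and 3. Diabetic animal 3 was again the lowest of the 6, with a difference of -0.75 log2 units from the mean of diabetic animals 1 and 2, where the brighter clone had -1.36. Its 4 ratios of diabetic animal 3 to a partner were -0.86, -1.37, -0.88 and -0.27 less the dye term, in the order of partners used above. On the other 8 arrays they reached 0.62 in size, so the last of these, from spots not called detected, lay inside that span. The clones share the RNA and are not replicates.

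The likeness of the 4 genes over the arrays rested largely on the arrays of diabetic animal 3. Pearson's r over the 12 ratios less dye ran from 0.83 (Lrp2 and Slc22a7) to 0.92 (Lrp2 and Gatm) among the 6 pairs of genes. Over the 8 arrays without that animal it ran from -0.04 to 0.36 for 5 pairs, and it was 0.79 for Gatm and Slc22a7. These values describe arrays that share animals, dyes and slides, and carry no test.

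Genes whose 12 ratios were most like each member were ranked by the same r among 3926 named genes detected on at least 6 arrays. Fh1, the fumarate hydratase of the citric acid cycle, came first for Lrp2 (r = 0.97) and for Miox (0.96) and at place 3 for Gatm (0.94). Its level was 0.25, 0.12 and 0.29 in menopausal/diabetic animals, against 0.07, 0.26 and -0.98 in diabetic animals. After Fh1, Lrp2 was followed by Ptprd (0.93), a receptor tyrosine phosphatase, Oxct1 (0.93), a ketone body enzyme, Mcm6 (0.93), a subunit of the replicative helicase, and Vdac1 (0.92), a channel of the outer mitochondrial membrane. Miox was followed by Laptm4a (0.95), Cdhr5 (0.94), a protocadherin of brush borders, Retreg3 (0.93) and Tmem242 (0.92).

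Gatm was most like Rsu1 (0.96), Tbc1d2b (0.95), Fh1, Hnrnpa2b1 (0.92) and Tmem64 (0.92). Slc22a7 was most like Col3a1 (0.93), a fibrillar collagen chain, then Tmco3 (0.91), Stmn1 (0.90), a microtubule regulator, Washc2 (0.89) and Rhoa (0.87), a small GTPase of the cytoskeleton. The 5 genes closest to Slc22a7 were among none of the closest to the other 3. All of these genes were lowest in diabetic animal 3, as a match over these arrays requires.

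Other genes of the same processes were counted from 5 lists, of which 37 genes passed the brightness filter and were tested. Of these, 32 were detected on at least 6 of the 12 arrays, while Cyp7b1 was detected on 0 and Slco2b1 on 1. In the group comparison 0 of 37 passed. An unadjusted p under 0.05 was reached by 4, Cltc, Ckmt1, Akr1a1 and Slc6a8, the last of which is named after its values were seen. All 4 were higher in menopausal/diabetic animals, as were 5.12% of all genes and clones at that p. The F test among diabetic animals called 4 of 37, 3 with animal 3 lowest (Ckb, Cndp2 and Acy3) and 1 with it highest (Gldc), where the shares over all genes and clones were 1.47% called, 0.492% lowest and 0.924% highest. Animal 3 was the lowest of all 6 animals for 14 of them, against 22.4% of all genes and clones. Their median difference of diabetic animal 3 was -0.06 log2 units, against 0.0048 over all genes and clones.

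Of 20 further endocytosis genes, 9 were tested and 0 were called by either test, with a median difference of diabetic animal 3 of -0.11. Dab2, an adaptor that links megalin to clathrin, had 0.38, -0.04 and 0.08 in menopausal/diabetic animals, against -0.22, 0.21 and -0.40 in diabetic animals (F test adjusted p = 0.074, limma), and its difference of diabetic animal 3 was -0.39 but 0.05 with median centring. Cltc, the clathrin heavy chain, had 0.16, 0.20 and 0.30 in menopausal/diabetic animals, against -0.16, -0.17 and -0.33 in diabetic animals, a difference of 0.44 ± 0.07 whose adjusted p was 0.28. Its groups did not overlap, as for 14.3% of all genes and clones. The Cltc difference ran from 0.14 with a loess curve per print block to 0.54 with arrays scaled to equal spread. Rab11a, a GTPase of recycling endosomes, and Ankra2, which binds the megalin tail, differed by -0.22 ± 0.13 and -0.05 ± 0.10 between the groups. Both were highest in diabetic animal 3, as were 26.8% of all genes and clones. Neither passed the F test (adjusted p = 0.594 for Rab11a and 0.568 for Ankra2, limma).

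Of 16 further genes of arginine and creatine metabolism, 8 were tested and 2 were called among diabetic animals, in opposite directions. Ckb, the brain-type creatine kinase, had 0.33, 0.07 and 0.12 in menopausal/diabetic animals, against 0.34, -0.08 and -0.78 in diabetic animals, and fell to its lowest level in diabetic animal 3 (adjusted p = 0.00229, limma's F test). Gldc, which breaks down glycine, had -0.30, -0.14 and 0.02 in menopausal/diabetic animals, against -0.14, -0.24 and 0.80 in diabetic animals (adjusted p = 0.0181). Ckmt1, the mitochondrial creatine kinase, was -0.67 and Arg2, the mitochondrial arginase, 0.97 in diabetic animal 3 relative to the other diabetic animals, with adjusted p of 0.274 and 0.255. Between the groups 0 of the 8 passed, and the largest differences were -0.62 ± 0.28 for Arg2 and 0.49 ± 0.19 for Ckmt1.

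Of 16 further genes of inositol and glucuronate metabolism, 7 were tested and 0 were called. Akr1a1, a reductase that acts on glucuronate, had 0.04, 0.32 and 0.13 in menopausal/diabetic animals, against -0.03, -0.02 and -0.44 in diabetic animals, a difference of 0.32 ± 0.13 (adjusted p = 0.589, limma) that was -0.11 with a loess curve per print block. Slc5a11, an inositol carrier, lay 0.43 lower in diabetic animal 3 than the mean of diabetic animals 1 and 2. Impa1, inositol monophosphatase, lay 0.31 lower by the same measure. Ugdh, which makes UDP-glucuronate, lay 0.15 higher by that measure, though below diabetic animal 2. None of these passed the F test. Of 22 further organic ion transporters 3 were tested and 0 were called. Slc22a5, the carnitine transporter of the same family as Slc22a7, had -0.02, -0.05 and -0.18 in menopausal/diabetic animals, against 0.07, 0.31 and -0.13 in diabetic animals. Slco3a1 had its highest level, 0.22, in diabetic animal 3, as did 26.8% of all genes and clones.

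Of 53 other proximal tubule markers, 10 were tested, 2 were called and both were low in diabetic animal 3. Cndp2, a cytosolic dipeptidase, had 0.14, 0.10 and 0.13 in menopausal/diabetic animals, against 0.22, 0.05 and -0.65 in diabetic animals (adjusted p = 0.0243, limma's F test). Acy3, an aminoacylase named here after its values were seen, had 0.09, -0.15 and -0.02 in menopausal/diabetic animals, against 0.22, 0.34 and -0.48 in diabetic animals (adjusted p = 0.0135). Pdzk1, a scaffold of brush border transporters, had 0.22, 0.25 and 0.32 in menopausal/diabetic animals, against -0.10, 0.32 and -1.01 in diabetic animals, and did not pass (adjusted p = 0.133). Gpx3, a secreted peroxidase made in proximal tubule, and Agt, angiotensinogen, stood 0.33 and 0.30 higher in diabetic animal 3 than in the other diabetic animals, and neither passed.

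Genes that mark other cell types were read in the same way. Of the distal convoluted and connecting tubule list 4 of 8 genes were tested, with mean levels of 0.06 to 0.23 in menopausal/diabetic animals, against -0.34 to 0.03 in diabetic animals. Calb1, the calcium-binding calbindin of that segment, lay 1.39 log2 units lower in diabetic animal 3 than in the other diabetic animals (adjusted p = 0.0123, limma's F test). S100g, another calcium-binding protein, lay 0.94 higher (adjusted p = 0.000405). Wnk1 lay 0.58 lower and Slc8a1, detected on 3 arrays, 0.22 lower, neither past the F test. Diabetic animal 3 was the lowest of the 6 animals for 3 of the 4, against 22.4% of all genes and clones. All 3 tested endothelial genes were lowest of the 6 animals in diabetic animal 3, as were 22.4% of all genes and clones, and 0 were called. The same held for all 5 tested fibroblast and mesangial genes, of which only Col3a1 was detected on at least 6 arrays, and Pdgfrb and Col1a1 on 1 each. The endothelial means ran from -0.01 to 0.13 in menopausal/diabetic animals, against -0.23 to 0.07 in diabetic animals, and the fibroblast means from 0.01 to 0.04, against -0.24 to 0.08. Red cell genes had means of -0.08 to 0.02 in menopausal/diabetic animals, against -0.10 to 0.17 in diabetic animals. Relative to the other diabetic animals, diabetic animal 3 was at -0.36 for Podxl of podocytes and 0.03 for Cdkn1c, the other podocyte gene tested. It was at -0.39 for Fxyd4 of the collecting duct and -0.06 for Slc4a1 of intercalated cells. The 3 macrophage genes ran from -0.44 to -0.11, and the liver genes Alb and Ttr stood at -0.16 and -0.05. None of these passed the F test. None of the genes listed for thick ascending limb or lymphocytes was on the array, and the part of these other cells in the low values of the 4 genes was not tested.

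**Figure D5:**
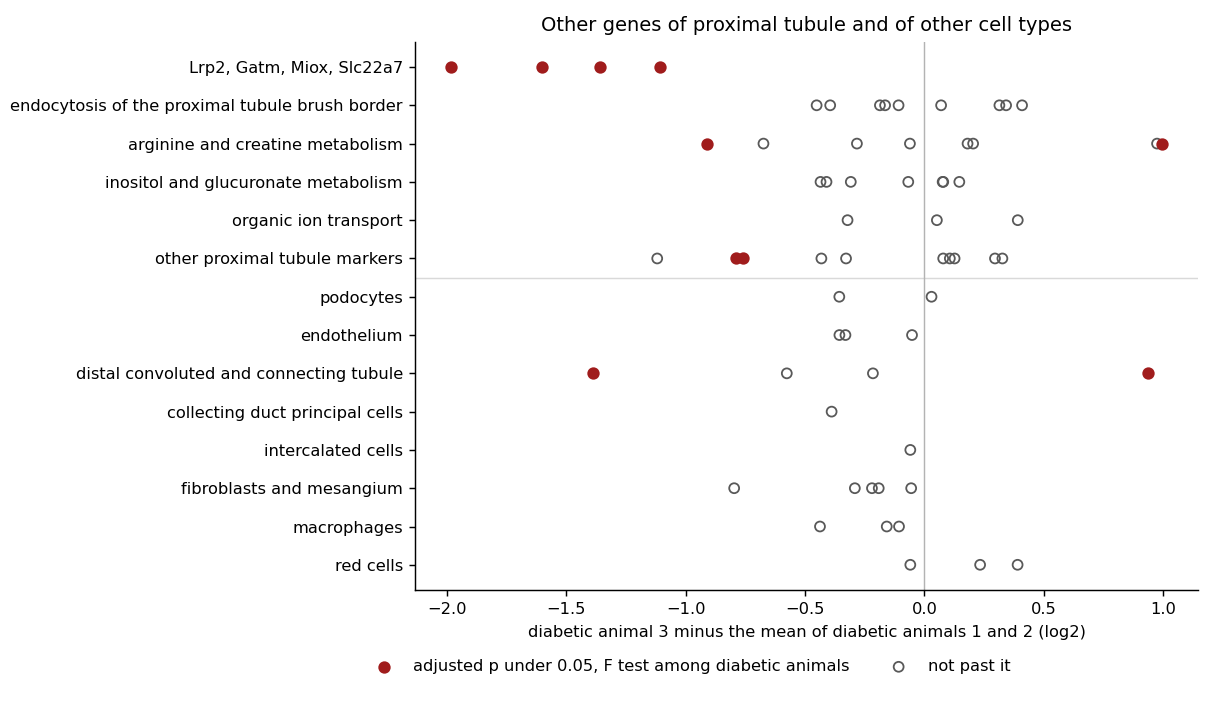
Difference of diabetic animal 3 from the mean of diabetic animals 1 and 2, in log2, 1 point per tested gene, with the 4 genes in the top row, 5 lists of proximal tubule function below them and markers of other cell types under the grey line. Filled points passed the F test among diabetic animals; the 4 genes lie between -1.98 and -1.11, and of the other rows Calb1 reaches -1.39 and Pdzk1 -1.12.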

How the data were processed

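Per the labels' protocols, total cortex RNA was amplified and its cDNA labelled with 1 of 2 dyes. Spot and local background intensity per channel, unscaled per the file headers, were the starting values, and the signal-to-noise score deposited with them was not used. The authors' deposited log2 ratios, made in a way no label states, served as an alternative. Spots were named through the platform's probe table, counted from the bottom of the slide. Background was corrected by normexp (offset 50) and ratios by loess within each array (R 4.3.3, limma 3.58.1). Both spots of each clone entered as their mean, the dimmest 25% of clones were dropped and the brightest clone was kept per gene. Animal levels and a dye term were fitted to the 12 log2 ratios (6 residual degrees of freedom). The 6 levels were compared 3 against 3 by lmFit and eBayes, and the animals of a group by the moderated F test, whose error is that between arrays. All p-values are two-sided or F, with Benjamini-Hochberg adjustment over all 9955 genes and clones and a threshold of 0.05. Named list genes are the up to 4 with the largest group difference among those detected on at least 6 arrays. The members and lists were chosen with earlier results of these data known.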

Additional observations from a re-analysis of the deposited data

How the results depend on the processing

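Each animal level rests on 4 arrays, so 1 array can move a call. The group difference stayed below the threshold for all 4 genes under every alternative run. The lower level of diabetic animal 3 was negative in 19 of 19 alternatives for each gene, from -0.78 to -1.44 for Lrp2, -1.13 to -2.40 for Gatm, -0.58 to -1.45 for Miox and -0.55 to -1.75 for Slc22a7. It was called in 17 of 19 for Lrp2, 17 for Gatm, 18 for Miox and 17 for Slc22a7. Most of these 19 alternatives left out 1 or 2 arrays. The F test among diabetic animals was not run with arrays scaled, local background subtracted outright, clones averaged, channels taken separately or the deposited table. Median centring gave adjusted p of 0.0729 for Lrp2 and 0.0574 for Miox. There the brightest 5% of genes had a median difference of 0.50, against -0.02 with loess. No background correction gave 0.0734 for Slc22a7, and leaving out the 2 arrays least well predicted from the others gave 0.0709 for Gatm. Dropping the array of diabetic animals 2 and 3 gave 0.0856 for Lrp2, 0.119 for Gatm and 0.0691 for Slc22a7. These were the highest adjusted p without 1 array, and the lowest were 0.00512 for Lrp2, 0.00258 for Gatm and 0.00213 for Slc22a7. The cause was not tested.

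The Slc22a7 group difference changed sign without background correction (-0.11), with arrays scaled (-0.0297), without the 2 poorly predicted arrays (-0.0936), and without the 2 slides numbered apart (-0.0052). Without 1 animal it ran from -0.38 to 0.34 and without 1 array from -0.07 to 0.14. Gatm ran from -0.14 to 1.16, Miox from -0.0927 to 0.58 and Lrp2 from 0.02 to 0.79 without 1 animal. The deposited table by column name gave -0.0885 for Lrp2 and -0.67 for Gatm. Its columns were best matched by other arrays than their names give, so these values may assign ratios to the wrong animals. With local background subtracted outright Gatm had no value. The count between the groups was 0, but 2 with arrays scaled, 22 with arrays as replicates and 0 to 44 without 1 animal. The F count among diabetic animals was 146, but 42 without background correction, 273 with a loess curve per print block, 337 with median centring, 64 without the 2 poorly predicted arrays, 56 without the 2 slides numbered apart, and 31 to 186 without 1 array. Among menopausal/diabetic animals it was 0, but 1 with a loess curve per print block and 0 to 1 without 1 array. Animal numbers are names only. With them as a replicate block the difference was 0.48 for Lrp2 (adjusted p = 0.874), 0.69 for Gatm, 0.30 for Miox and 0.06 for Slc22a7, and no call changed.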
